A study of Homo sapiens with 10 samples.

Results

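This account covers 10 genes: the ligands IL6, LIF, IL11 and CLCF1, the receptors IL6R, IL11RA, LIFR and OSMR, the shared receptor chain IL6ST and the feedback inhibitor SOCS3. They were chosen by name as members of the IL-6 cytokine family, its receptors and its best known inhibitor. No measured value set the choice, though earlier results of these data were known. All 10 of 10 were found among the 34567 genes of the count table. The study asked what the homeobox transcription factor MEOX2 does in glioma, and its RNA sequencing compared cells with less or more MEOX2 with matched controls in 10 libraries. SNB19, a human glioblastoma line, was transfected with a scramble siRNA (NC, n = 3) or with an siRNA against MEOX2 (siMEOX2, n = 3). U87, another human glioblastoma line, was transduced with an empty lentiviral vector (EV, n = 2) or with a lentivirus that overexpresses MEOX2 (OE, n = 2).

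All cells were grown in DMEM with fetal bovine serum, and the libraries were made from polyadenylated RNA. The siRNA transfection was transient, and which of the study's MEOX2 siRNAs was sequenced is not given in the sources used here. The U87 cells were selected with puromycin, so each U87 group is a selected pool of transduced cells, and the transgene carried a Flag tag. The treatment labels of some U87 libraries name other MEOX numbers than MEOX2, and groups were taken from the titles. The titles of both OE libraries carry the same name in brackets, though their counts differ. No label says that the replicates were separate cultures, so the p-values measure only the spread between these libraries. In bulk RNA, fewer expressing cells and less RNA per cell cannot be told apart.

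Cytokines of the IL-6 family signal through gp130, the protein encoded by IL6ST, which nearly every cell carries. IL-6 and IL-11 first bind a receptor of their own, IL6R or IL11RA, and the complex then recruits a pair of gp130 chains. LIF binds LIFR, which pairs with gp130, and CLCF1 reaches the same pair through the receptor of ciliary neurotrophic factor, while OSMR pairs with gp130 to receive oncostatin M. The joined chains activate the kinases JAK1, JAK2 and TYK2 and the transcription factor STAT3, and STAT3 switches on SOCS3, which binds gp130 and shuts the signal down. In glioblastoma the pathway is best known for STAT3 activity and for LIF and IL-6 made by the tumour and the cells around it.

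IL11RA is the member that the study itself followed up after looking at these libraries, so its direction in them is not independent evidence. The gene lies at chr9:34650702-34661892 on the plus strand of GRCh38. The primers that the study used to measure IL11RA by qRT-PCR are shown because they mark which messages that assay and the read counts have in common.
forward primer: tcaagttccgtttgcagtacc
reverse primer: gcactgactcgtacagcatgg
Both match IL11RA in GENCODE 29 and span 124 bases of message between exons 8 and 9 of the transcript IL11RA-201, at chr9:34658634-34659832. That amplicon is present in 6 of the gene's 15 annotated transcripts, whereas the read counts cover the exons of all of them.

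RefSeq promoter windows of 250 bases before the start site (GRCh38.p14) were found for 8 of the 10 genes, LIF and CLCF1 being the ones not found. The windows of IL6 and IL11 are shown because those are the ligands with a window and a searched motif. In each, capitals mark the match to a searched motif.
IL6, chr7:22726950-22727199, plus strand: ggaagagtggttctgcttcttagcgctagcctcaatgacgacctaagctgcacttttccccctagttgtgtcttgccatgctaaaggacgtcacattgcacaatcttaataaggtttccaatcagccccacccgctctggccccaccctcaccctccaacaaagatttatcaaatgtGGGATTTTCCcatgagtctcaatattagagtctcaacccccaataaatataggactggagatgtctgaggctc
IL11, chr19:55370464-55370713, minus strand: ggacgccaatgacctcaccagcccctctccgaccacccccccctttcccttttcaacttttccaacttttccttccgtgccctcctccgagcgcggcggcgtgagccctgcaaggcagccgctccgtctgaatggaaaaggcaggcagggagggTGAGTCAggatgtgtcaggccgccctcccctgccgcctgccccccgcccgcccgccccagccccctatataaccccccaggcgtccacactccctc
The IL6 match is to the NF-kB motif searched (GGG, any 2 bases, then TTTCC), whose first base lies at position -73 from the start, and 1.73% of all 35116 promoter windows hold that motif on either strand. The IL11 match is to the AP-1 motif TGANTCA at position -96, held by 6.57% of all windows. The STAT motif TTCNNNGAA, held by 6.57% of all windows, was found in the windows of LIFR alone among these genes. The SOCS3 windows lie at chr17:78360926-78361175 and chr17:78359668-78359917. They do not cover the bases just before the GENCODE 29 start of SOCS3, at chr17:78360077 on the minus strand. Those bases were not searched for any motif. The homeodomain motifs TAATTA and TAATGA, held by 4.35% and 7.75% of all windows, were in none of the 12 windows of the 8 genes. A match is a description of letters and not a binding site.

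The libraries held between 12533775 and 16560324 counts each. MEOX2 was checked first. Levels are given as TMM-normalised CPM, read counts scaled to a common library total by a factor that discounts a few very abundant genes. MEOX2 was at 14.4, 15.5 and 16.7 CPM in NC and 3.13, 2.46 and 3.07 in siMEOX2. That is a 5.31-fold fall (edgeR adjusted p = 1.35e-11). U87 EV libraries had 0 and 0 MEOX2 counts against 4999 and 5308 in OE, at least 1619-fold higher when each EV library is given a floor of 3 counts. One U87 library stood apart: EV replicate 1 had 26.2% of its counts in genes longer than 6000 bases, against 39.8 to 43.2% in the other 9, and 19590 genes with a count against 20933 to 26059. The U87 comparisons below rest on that library and are given with and without it.

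The offset of EV replicate 1 was uneven over the IL-6 family, whose ligand genes are short and whose receptor genes are mostly long. The median log2 ratio of EV replicate 1 to EV replicate 2 ran from 0.73 in the second decile of gene length to -0.78 in the tenth. Among the members it was -1.52 for IL6ST (exonic length 9292 bases), -1.54 for LIFR (11864 bases) and -1.44 for OSMR (7174 bases). IL6, the second shortest at 2069 bases, was at 1.03, but CLCF1, the shortest at 1975 bases, was at 0.20. IL11RA was at 0.84 with 4271 bases. SOCS3 was low in EV replicate 1, at -1.20, though its exons span 2734 bases, so length alone did not order the members. The part of RNA quality or library preparation in this offset was not tested.

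**Figure D1:**
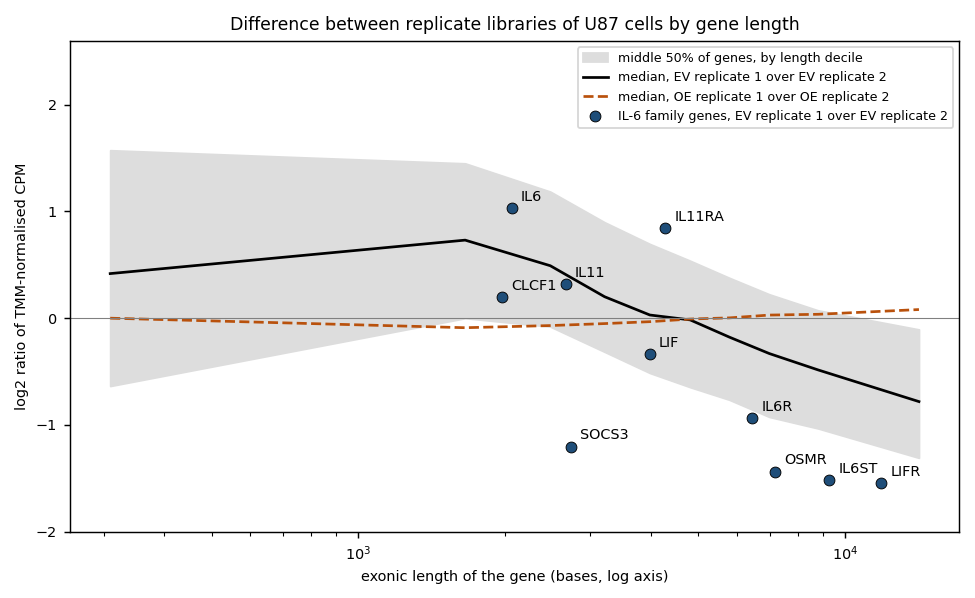
Log2 ratio of TMM-normalised CPM between replicate libraries of U87 cells (vertical axis) against exonic gene length in bases (horizontal log axis). The black line (median of each length decile, EV replicate 1 over EV replicate 2) falls from 0.73 to -0.78 inside a grey band that holds the middle 50% of genes, the dashed line for the OE pair stays near 0, and the points show IL6ST, LIFR and OSMR at the long end below -1.4.

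Glioma and mesenchymal markers were summed as FPKM (fragments scaled to gene length and to library total). The sums were 347 to 357 in NC, 159 to 167 in siMEOX2, 375 to 790 in EV and 191 to 193 in OE. Most came from VIM, CD44 and CHI3L1. SOX2 was at 12.4 to 14.5 FPKM in NC but at most 0.0283 in EV and 0.0953 in OE. GFAP was at most 0.397 in NC and lower in the other groups. S100B was at most 0.223 in NC and 0.192 in siMEOX2, and was listed at 0 in both EV and both OE libraries. The 6 of 7 glioma markers that could be tested were all called lower in siMEOX2 than in NC, among them CD44, VIM and GFAP. Of all 15525 genes tested in SNB19, 28.5% were called lower (edgeR adjusted p below 0.05). The part of these markers in the results was not tested. Macrophage markers summed to 4.35 to 5.05 FPKM in NC and 1.19 to 1.67 in siMEOX2, and to 2.58 to 3.52 in EV and 0.559 to 0.794 in OE. Endothelial markers summed to 5.20 to 5.93 FPKM in NC and 0.871 to 1.32 in siMEOX2, and to at most 1.12 in U87. In SNB19 most of the macrophage sum was CSF1R, with a mean of 3.83 FPKM in NC and 1.24 in siMEOX2. CD14 had a mean of 0.728 in NC, and none of the other macrophage markers was above 0.0478 there. Most of the endothelial sum was PECAM1, at 4.27 in NC and 0.729 in siMEOX2. The sums thus moved with the knockdown mainly through single genes, and their part in the results was not tested. Lymphocyte markers summed to at most 0.0993 FPKM and neuron markers to at most 4.36 in any library.

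Levels can be compared between genes only per length, so they are given here as FPKM. In SNB19 NC the shared chain and the oncostatin M receptor were the most abundant, with IL6ST at 31.2 ± 1.73 FPKM (SD, n = 3) and OSMR at 27.8 ± 1.60. SOCS3 followed at 14.0 ± 0.965, then LIF at 12.4 ± 0.436 and LIFR at 6.24 ± 0.845. CLCF1 at 4.69 and IL6R at 4.40 had overlapping ranges. At the low end stood IL11 at 3.83, IL6 at 1.46 and IL11RA at 0.105 ± 0.0485.

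The order was different in U87, where ligands had the highest group means. In the 2 OE libraries IL11 was highest at 69.8 ± 5.13 FPKM (SD, n = 2), followed by LIF at 55.5 ± 1.32 and IL6ST at 44.9 ± 2.90. IL6 at 30.4 and SOCS3 at 29.8 overlapped, CLCF1 stood at 27.01 and OSMR at 23.4. IL6R at 6.40, LIFR at 3.75 and IL11RA at 0.264 closed the order. In EV the ranges of SOCS3, LIF, IL6ST and OSMR all overlapped their neighbours. CLCF1 had the highest mean at 25.7 ± 3.24, but its range overlapped those of SOCS3 and IL6ST. In EV replicate 2 alone SOCS3 was highest at 29.2, before CLCF1 at 28.0, IL6ST at 25.8 and IL11 at 22.3. IL11RA had the lowest mean of the 10 genes in every group, though in EV its range overlapped that of IL6R, and in EV replicate 1 both IL6R and LIFR were below it.

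**Figure D2:**
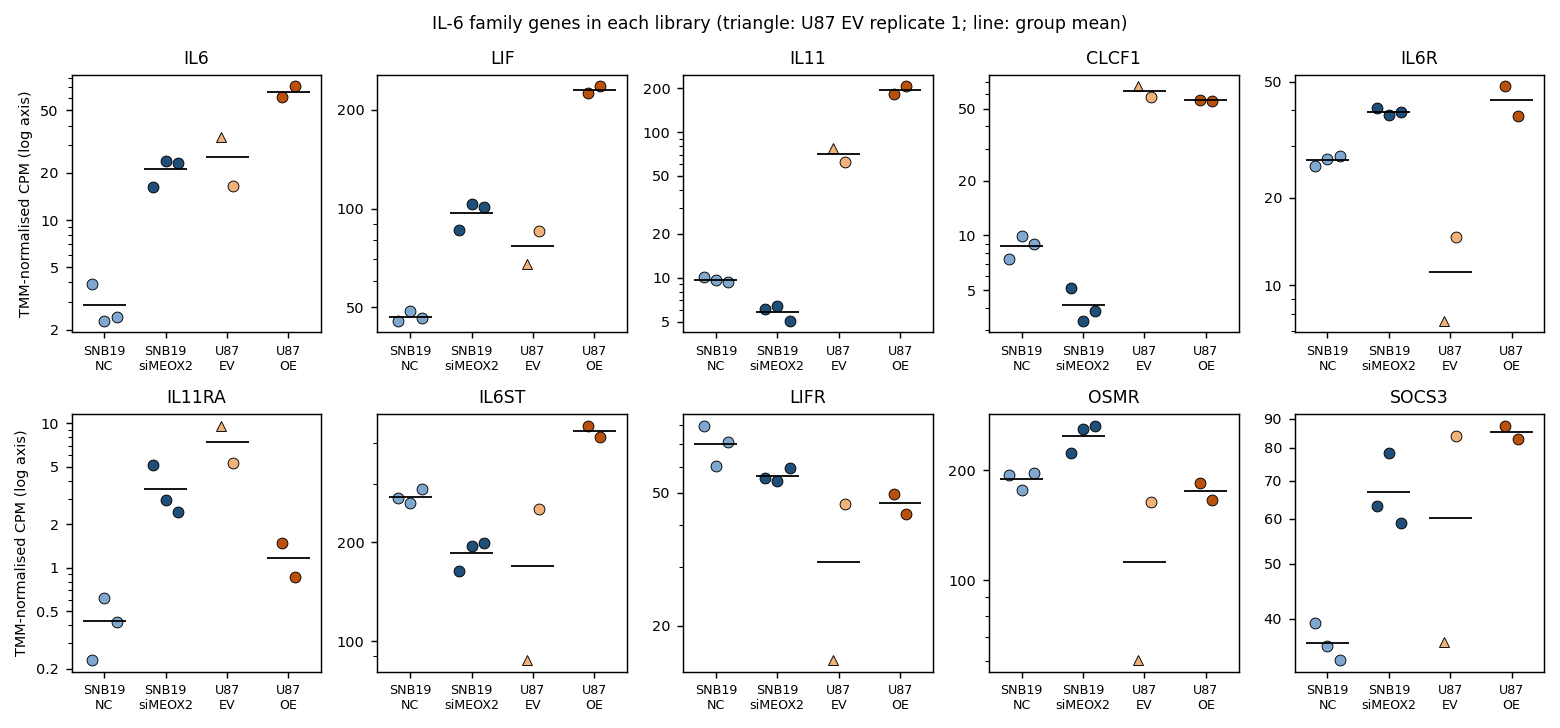
TMM-normalised CPM of each of the 10 genes (vertical log axis, 1 panel per gene) in every library of the 4 groups, with a line at each group mean and a triangle for EV replicate 1. The IL6, LIF and IL11RA points of SNB19 siMEOX2 all lie above those of NC, and IL11RA is the 1 gene whose OE points lie far below both EV points.

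Knockdown of MEOX2 in SNB19 was accompanied by changes in every member: IL6, LIF, IL6R, IL11RA, OSMR and SOCS3 rose, and IL11, CLCF1, IL6ST and LIFR fell. These are 6 higher and 4 lower of 10 tested, called at an adjusted p below 0.05 by edgeR's quasi-likelihood test with Benjamini-Hochberg adjustment over 15525 genes. Of all genes tested, 55.9% were called, 27.4% higher and 28.5% lower. The siMEOX2 and NC values did not overlap for any of the 10, as for 61.1% of all genes. The median log2 fold change was 0.49 over the 10 genes and 0.01 over all genes. At the study's threshold, an unadjusted p below 0.05 with an absolute log2 fold change above 1, only IL6, LIF, IL11RA and CLCF1 passed, against 10.8% of all genes.

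IL6, the founding ligand of the family, moved most among the ligands. It was at 3.92, 2.29 and 2.43 CPM in the NC libraries and at 16.3, 23.8 and 23.1 CPM in siMEOX2. The lowest siMEOX2 library was thus well above the highest NC library, and the log2 fold change was 2.86 ± 0.181 (SE, edgeR adjusted p = 3.97e-11), a 7.27-fold rise. LIF, which keeps stem cells undifferentiated in many settings, was at 45.6, 48.6 and 46.3 CPM in NC and 86.0, 103 and 101 CPM in siMEOX2. The groups were tight and apart, with a log2 fold change of 1.06 ± 0.0723 (SE, edgeR adjusted p = 1.26e-10).

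The other ligands went the opposite way. IL11, which acts on stromal and epithelial cells, was at 10.0, 9.69 and 9.40 CPM in NC and 6.08, 6.40 and 5.07 CPM in siMEOX2. All siMEOX2 libraries were lower, with a log2 fold change of -0.72 ± 0.134 (SE, edgeR adjusted p = 0.000125). CLCF1, a ligand of the ciliary neurotrophic factor receptor, was at 7.44, 9.97 and 8.91 CPM in NC and 5.15, 3.39 and 3.82 CPM in siMEOX2. Its log2 fold change was -1.07 ± 0.170 (SE, edgeR adjusted p = 2.05e-05).

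IL11RA, the receptor that binds IL-11, had the largest fold change of the 10 genes, but on few reads. The NC libraries held 4, 9 and 7 counts and the siMEOX2 libraries 89, 48 and 39 counts. As CPM these were 0.231, 0.623 and 0.424 against 5.15, 2.96 and 2.44, so the groups were apart while the siMEOX2 libraries spread widely among themselves. The log2 fold change was 3.08 ± 0.380 (SE, edgeR adjusted p = 7.96e-07), with the largest standard error of the 10. IL11RA overlaps the gene GALT on the same strand, which had 0 to 5 counts in NC and 5 to 11 in siMEOX2. How reads in overlapping exons were counted is not given in the sources used here.

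IL6R, the IL-6 receptor, was at 25.7, 27.2 and 27.8 CPM in NC and 40.6, 38.4 and 39.3 CPM in siMEOX2. This 1.48-fold rise was well beyond the spread of either group (log2 fold change 0.57 ± 0.0733 SE, edgeR adjusted p = 1.46e-06). OSMR, the oncostatin M receptor, rose by a log2 fold change of 0.41 ± 0.0633 (SE, edgeR adjusted p = 1.40e-05), from 177 to 196 CPM in NC to 222 to 265 in siMEOX2. The remaining receptor, LIFR, had the smallest difference, with 60.2 to 79.6 CPM in NC and 54.2 to 59.3 in siMEOX2. Only about 1 CPM separated the nearest libraries, and the log2 fold change was -0.31 ± 0.0791 (SE, edgeR adjusted p = 0.00232).

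IL6ST, the shared chain gp130, fell while the ligand IL6 rose. It was at 272, 263 and 290 CPM in NC and 163, 194 and 199 CPM in siMEOX2. Every siMEOX2 library was lower, with a log2 fold change of -0.55 ± 0.0655 (SE, edgeR adjusted p = 4.54e-07). SOCS3, the feedback inhibitor, was at 39.3, 35.7 and 33.8 CPM in NC and 63.2, 78.3 and 59.0 CPM in siMEOX2. It rose 1.86-fold (log2 fold change 0.89 ± 0.0894 SE, edgeR adjusted p = 4.02e-08).

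Leaving out any 1 of the 6 SNB19 libraries changed none of these 10 calls. In 1 fit over all 4 groups, which shares the wider U87 spread, IL6R, IL6ST, LIFR, OSMR and SOCS3 missed the threshold, with edgeR adjusted p of 0.106, 0.256, 0.545, 0.413 and 0.0513.

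Overexpression of MEOX2 in U87 gave no called member in the edgeR test of the 4 U87 libraries, 0 of 10. That test called 0 of 14180 genes in all (0%), and MEOX2 itself was not called (edgeR adjusted p = 0.124). A gene missing from its calls can therefore not be read as unchanged. At an unadjusted p below 0.05 the same edgeR test held 2643 genes, or 18.6%, and DESeq2 called 991 genes (6.99%) at an adjusted p below 0.05. DESeq2's calls held 4 members, LIF, IL11, IL6R and IL11RA (DESeq2 adjusted p = 0.0128, 0.0264, 0.00726 and 0.00596). Without the filter on low counts edgeR called 6 members and 6.79% of genes, and in 1 fit over all 4 groups 6 members and 26.2% of genes, in both cases IL6 and IL6ST besides those 4. OE and EV values did not overlap for 8 of 10 members, 6 higher and 2 lower, as for 58.1% of all genes. At the study's threshold 4 members were higher (IL6, LIF, IL11 and IL6R) and IL11RA was lower, against 15.2% of all genes, with no adjustment for the number of genes tested. The values follow without a claim of change for the 4 libraries together.

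When EV replicate 1 was left out and the spread was shared over the 9 remaining libraries of all 4 groups, 6 of the 10 were called, 5 higher (IL6, LIF, IL11, IL6R and IL6ST) and 1 lower (IL11RA). In that fit 38.9% of 18318 genes were called, 20.4% higher and 18.4% lower. The lone EV library is there assumed to vary like the other groups. The median log2 difference of the 10 genes in that fit was 0.48 against 0.05 over all genes, and with all 4 U87 libraries it was 0.99 against -0.06. With EV replicate 2 left out in its place, a fit of the 3 remaining U87 libraries called 9 members and 71.2% of all genes, with its spread taken from the OE pair alone.

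**Figure D3:**
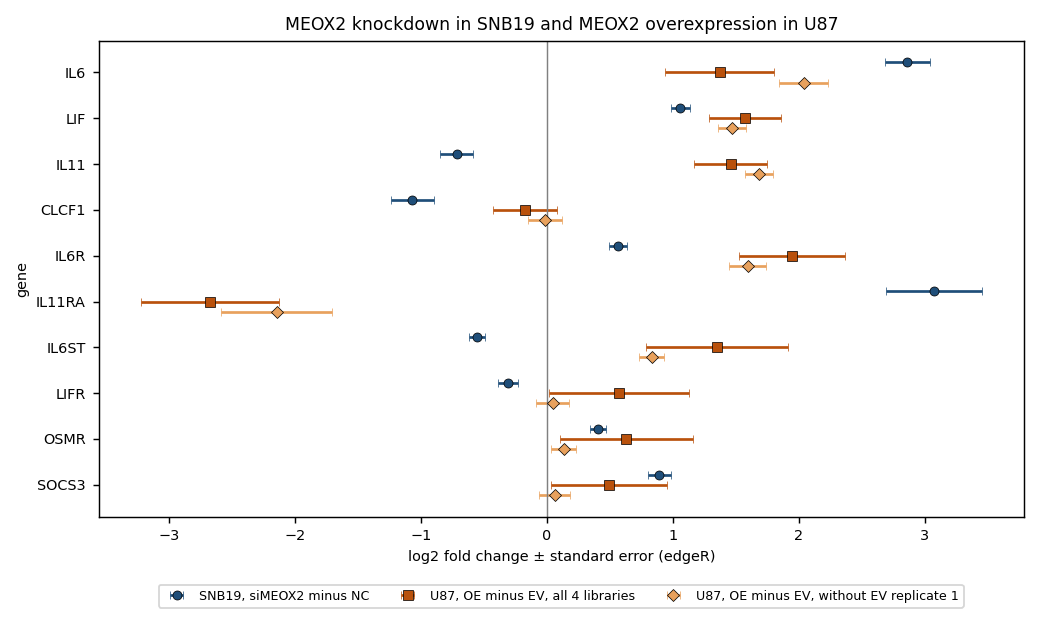
Log2 fold change ± SE by edgeR (horizontal axis) for each of the 10 genes in SNB19 (siMEOX2 minus NC), in U87 (OE minus EV) with all 4 libraries, and in U87 without EV replicate 1. IL6 and LIF lie to the right in both lines, and IL11RA lies at 3.08 in SNB19 and at -2.67 and -2.14 in U87.

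Among the U87 ligands, IL6 was at 33.9 and 16.5 CPM in EV and at 60.4 and 71.2 in OE. Both OE libraries were higher, and the log2 fold change was 1.37 ± 0.434 (SE, edgeR adjusted p = 0.230) with all 4 libraries and 2.04 ± 0.194 (SE, edgeR adjusted p = 9.37e-10) without EV replicate 1. LIF was at 67.8 and 85.5 CPM in EV and at 225 and 236 in OE. The EV pair lay close together, and the log2 fold change was 1.57 ± 0.284 (SE, edgeR adjusted p = 0.156), or 1.47 (edgeR adjusted p = 5.36e-12) without EV replicate 1.

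IL11 was at 77.9 and 62.5 CPM in EV and at 183 and 206 in OE. Its log2 fold change of 1.46 ± 0.287 (SE, edgeR adjusted p = 0.162) became 1.69 (edgeR adjusted p = 6.38e-13) without EV replicate 1. CLCF1 stood apart from these ligands, at 66.5 and 58.0 CPM in EV and 56.1 and 55.4 in OE. Its log2 fold change was -0.17 ± 0.25 (SE, edgeR adjusted p = 0.703), and -0.02 without EV replicate 1. With so few libraries these values set no firm bounds on a difference.

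IL11RA was the 1 member whose OE level was several-fold below EV, with 108 and 71 counts in EV and 18 and 12 counts in OE. As CPM the values were 9.62 and 5.30 in EV and 1.49 and 0.863 in OE, without overlap. The log2 fold change was -2.67 ± 0.549 (SE, edgeR adjusted p = 0.170), and -2.14 ± 0.441 (SE, edgeR adjusted p = 0.000232) without EV replicate 1. GALT, which overlaps it, had 100 to 183 counts in EV and 61 to 64 in OE, so the neighbour was lower as well in these libraries, by a smaller ratio.

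IL6R was at 7.57 and 14.6 CPM in EV and at 48.3 and 38.0 in OE. The OE libraries were both far above the EV libraries, with a log2 fold change of 1.94 ± 0.422 (SE, edgeR adjusted p = 0.173), or 1.60 (edgeR adjusted p = 4.25e-10) without EV replicate 1. IL6ST was at 87.7 and 252 CPM in EV and at 453 and 419 in OE. On the log2 scale the EV libraries differed from each other by more than EV replicate 2 did from OE, and the log2 fold change moved from 1.35 ± 0.567 (SE, edgeR adjusted p = 0.294) to 0.83 ± 0.101 (SE, edgeR adjusted p = 9.14e-08) without EV replicate 1.

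LIFR, OSMR and SOCS3 rested on EV replicate 1 for most of their difference. With all 4 libraries their log2 fold changes were 0.58, 0.63 and 0.49 (edgeR adjusted p = 0.568, 0.512 and 0.555). Without EV replicate 1 they were 0.05, 0.14 and 0.06. EV replicate 2 alone was at 46.2 CPM for LIFR, between the OE values of 43.4 and 49.7.

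Whether a change toward more MEOX2 differed between the lines was tested as the U87 difference (OE minus EV) minus the SNB19 difference (NC minus siMEOX2). A gene with the same log2 change in both lines would have a value of 0. The MEOX2 change itself was not the same, at 13.1 in this test, and the value is not scaled to it. Line and the way MEOX2 was altered also differ together and cannot be told apart. The value was called for 6 of the 10 genes, 5 above 0 and 1 below, against 24.4% of 17312 genes, of which 10.2% of all tested were above and 14.2% below. IL6 at 4.25, LIF at 2.63 and IL6R at 2.50 on the log2 scale had the largest values (edgeR adjusted p = 0.000418, 6.11e-05 and 0.000966). For these 3 genes the cells with less MEOX2 had the higher level in SNB19, and the cells with more MEOX2 had it in U87. Without EV replicate 1 the values were 4.89, 2.52 and 2.15, and 6 members were called above 0 and 1 below, against 43% of genes (21.3% above and 21.8% below).

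IL11RA gave the opposite picture. It was higher in the group with less MEOX2 in both lines. The difference between the lines was 0.39 ± 0.699 on the log2 scale (SE, edgeR adjusted p = 0.727). Without EV replicate 1 the difference was 0.92, so the values leave room for a difference between the lines. IL11, SOCS3 and CLCF1 were called too, at 0.74, 1.38 and -1.25 (edgeR adjusted p = 0.0335, 0.0391 and 0.0108). IL11 had the lower level in the group with less MEOX2 in both lines. IL6ST, LIFR and OSMR were not called, at 0.79, 0.26 and 1.04 (edgeR adjusted p = 0.255, 0.740 and 0.129).

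The control cells of the lines differed before MEOX2 was altered. U87 EV was higher than SNB19 NC for IL6 by a log2 value of 3.11, for IL11 by 2.85, for CLCF1 by 2.83, for IL11RA by 4.13 and for LIF by 0.71, and lower for IL6R at -1.27 and LIFR at -1.18. These were 5 higher and 2 lower of 10 called by edgeR, where 56.9% of 17312 genes were called, 28.8% higher and 28.1% lower. IL6ST, OSMR and SOCS3 were not called, at -0.70, -0.75 and 0.73 (edgeR adjusted p = 0.115, 0.0796 and 0.0554). SOCS3 was called without EV replicate 1, at 1.21 (edgeR adjusted p = 2.25e-10), which made 6 higher and 2 lower against 63.4% of genes (30.9% higher and 32.5% lower). Without EV replicate 2 SOCS3 was at 0.03 and IL6ST and OSMR were both at -1.62, and 9 members were called against 73.7% of genes. LIFR missed the threshold without NC replicate 1 (edgeR adjusted p = 0.0566). Line, vector and transfection differ together in this comparison and cannot be told apart.

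The rest of the pathway was counted from lists of family ligands, receptors, sheddases, transducers, inhibitors and STAT3 target genes, beside 27.4% of all genes called higher and 28.5% called lower in SNB19. In SNB19, 2 of the 10 transducers reported here rose after knockdown: STAT3 at a log2 fold change of 0.38 and PTPN11, the phosphatase SHP2 that links gp130 to RAS, at 0.50. The kinases JAK1, JAK2 and TYK2 fell by 0.26, 0.41 and 0.36 on the log2 scale, and the transcription factor STAT5A fell by 0.57. The median of these transducers was -0.065. Of the 9 inhibitors, 6 fell, among them the SOCS family members SOCS2 at -2.12, CISH at -1.66 and SOCS1 at -1.41, whereas the phosphatase PTPN2 rose by 0.32. SOCS3, counted among the 10 genes, was thus the 1 gene of the SOCS family examined that rose.

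STAT3 target genes counted 11 higher and 4 lower of 17 tested, against 27.4% higher and 28.5% lower of all genes, with a median log2 fold change of 0.25 against 0.01. FGG, a fibrinogen chain of the acute phase response, was among the 11 on few reads, with 1, 0 and 3 counts in NC and 21, 23 and 17 in siMEOX2. The transcription factors CEBPD and MYC rose by 1.78 and 1.35, and the angiogenic factor VEGFA by 1.60. CD44, a hyaluronan receptor that is also one of the glioma markers, changed by -1.18, TIMP1, an inhibitor of metalloproteinases, by -0.70 and the TNF receptor TNFRSF1A by -0.59. Of the 4 other family ligands tested, oncostatin M (OSM) rose by 1.93 and EBI3, a subunit of IL-27, changed by -0.98. The receptors IL27RA and IL31RA were called at -0.86 and -0.72, and the sheddase ADAM10, which can release membrane receptors, at -0.25.

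In U87 none of these lists held a gene called by the edgeR test of the 4 U87 libraries, and DESeq2 called IL12A, MYC and TNFRSF1A among those named. In the fit without EV replicate 1, which called 38.9% of all genes (20.4% higher and 18.4% lower), the lists were as follows. MYC at 1.39, TIMP1 at 1.22 and CEBPB at 1.05 were among 5 STAT3 target genes that rose with MEOX2 overexpression, and ICAM1 at -1.29 and TNFRSF1A at -1.18 among 5 that fell, of 17 tested. In the same fit JAK1 rose by 0.40 and STAT3 was at -0.41, among 1 higher and 2 lower of 10 transducers. The inhibitors split into 3 higher and 3 lower of 9, with SOCS1 at -0.90 and PIAS3 at -0.94. With EV replicate 2 left out in place of EV replicate 1, STAT3, PIAS3, SH2B3, ADAM10 and CTF1 had the opposite sign. IL12A rose by 1.92, CTF1 was called at 0.67 in this fit but was at 0.09 with all 4 libraries, and IL27RA was called at -1.42. TIMP1, CEBPD and IL31RA change sign between the fits with and without EV replicate 1.

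**Figure D4:**
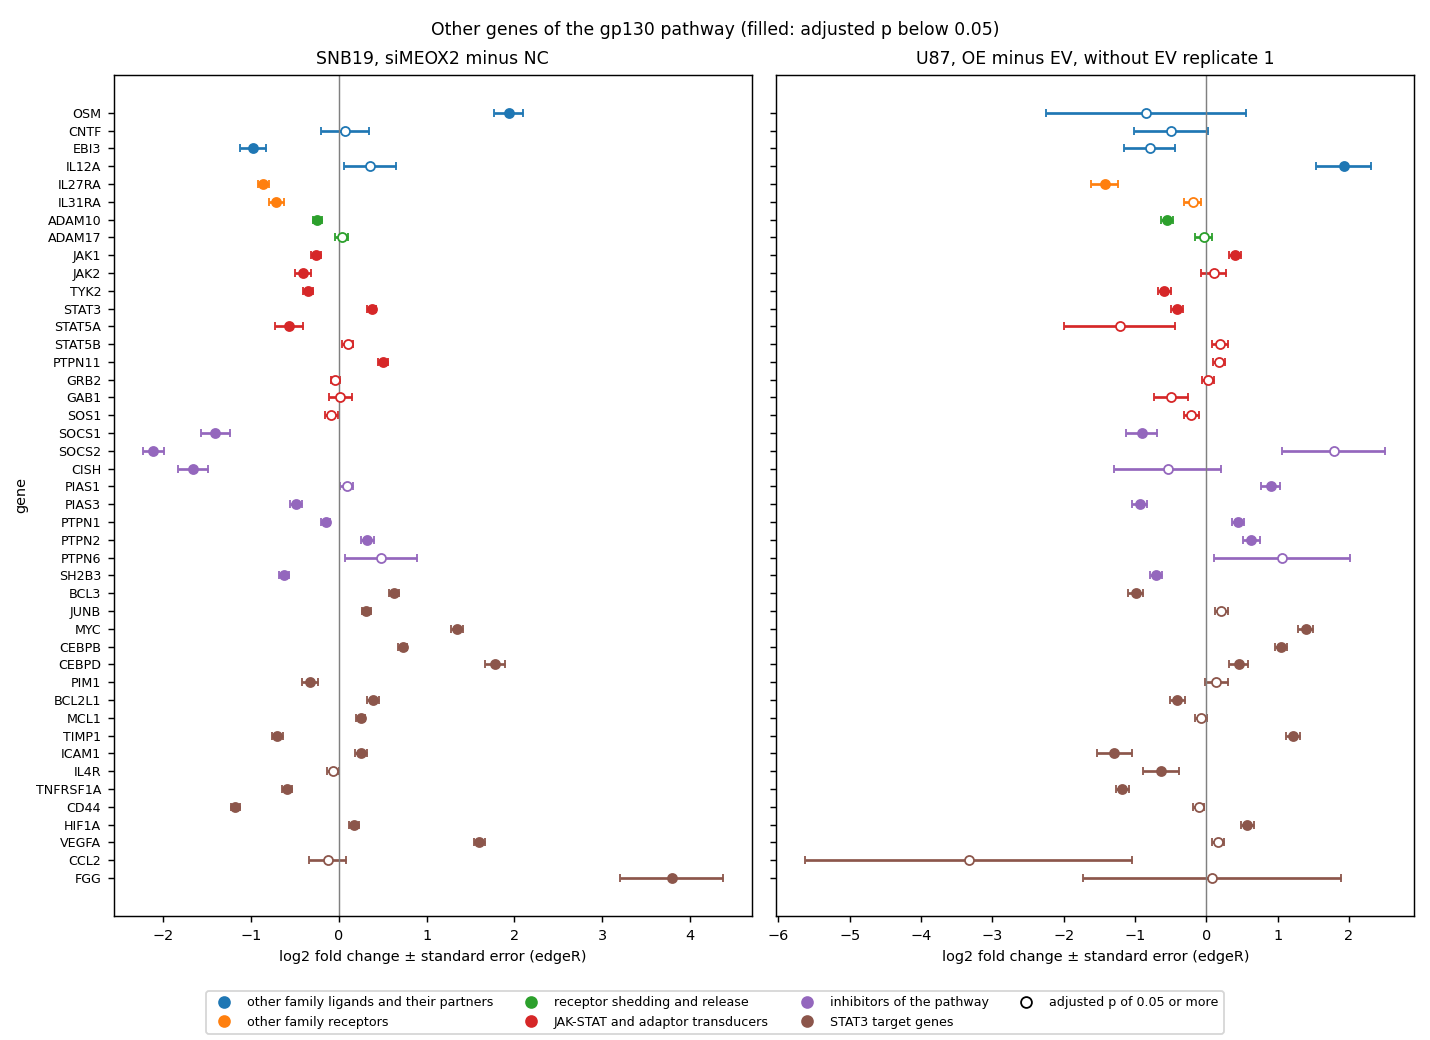
Log2 fold change ± SE by edgeR (horizontal axes) for the other pathway genes that were tested in SNB19, in SNB19 (left) and in U87 without EV replicate 1 (right), coloured by list and filled where the adjusted p is below 0.05. On the left SOCS2, CISH and SOCS1 lie far below 0, and on the right MYC, TIMP1 and CEBPB are filled above 1.

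Genes whose profile over the 10 libraries was closest to IL11RA were found by the root mean square difference of centred log2 CPM. They were TCAF2 (0.725), ME3 (0.745), AL132655.2 (0.749), COL5A3 (0.780) and SDC4 (0.793). Most were at low counts like IL11RA, but SDC4, a cell surface proteoglycan, had mean levels of 38.4 CPM in NC, 121 in siMEOX2, 237 in EV and 127 in OE. For IL6 the closest were SESN2 (0.407), CARMIL2 (0.505), CBS (0.513), VLDLR-AS1 (0.528) and KLF2 (0.544). SESN2, a stress-induced sestrin, had mean levels of 34.1 CPM in NC, 198 in siMEOX2, 187 in EV and 419 in OE.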

How the data were processed

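Polyadenylated RNA of 10 libraries was sequenced as paired reads on an Illumina HiSeq after preparation with a NEBNext Ultra kit that does not mark strand. Per the labels, the authors aligned with HISAT2 and counted with HTSeq 0.11.2, and DESeq2 1.26.0 is named for their comparisons. The deposited table holds raw counts per gene, whole numbers, and FPKM values that the authors computed per gene length and library total. The FPKM lengths equal the union of GENCODE 29 exons for all 10 genes described. The strand and overlap settings of the counting are not given in the sources used here.

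Counts were tested in R 4.3.3 with edgeR 4.0.16 (filterByExpr, TMM, glmQLFit, glmQLFTest, two-sided, Benjamini-Hochberg over all genes tested, threshold 0.05), within each line for siMEOX2 and OE and in 1 fit of 4 groups for comparisons between lines. FPKM served for levels only. Log2 CPM for likeness used a prior count of 2. The test was first tried on simulated data. Total counts of 12533775 to 16560324 per library leave IL11RA in NC at 4 to 9 counts, the fewest of the 10 genes. Alternatives were RLE size factors, DESeq2 1.42.0, other filters, a replicate block, each library left out, the study's threshold and 1 fit of all groups. Chosen after seeing the data were a length trend removed, a fit without EV replicate 1 and a crossed block. Same-numbered samples had correlations of deviations of 0.04, 0.00 and 0.06 in SNB19 and -0.16 in U87. With 2 libraries per U87 group the crossed pairing must give the same value with the opposite sign. The U87 value therefore cannot show whether samples are paired. Of gene names, 29 were duplicated and 11 were turned into dates, none among those named.

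The genes and lists were chosen with earlier results of these data known. Named were MEOX2, the 10 genes, up to 8 called genes per list by fold change, and the 5 genes closest to IL11RA and to IL6. Motifs were searched on both strands. 1 gene of the transducer list is not reported here.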

Additional observations from a re-analysis of the deposited data

Results flagged for a closer look

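For 6 genes the change toward more MEOX2 differed between the lines, by the edgeR test of the difference itself (U87 OE minus EV, minus SNB19 NC minus siMEOX2), called for 24.4% of all genes tested. This difference is not scaled to the size of the MEOX2 change, which was larger in U87. On the log2 scale IL6 differed by 4.25 (edgeR adjusted p = 0.000418), LIF by 2.63 (6.11e-05) and IL6R by 2.50 (0.000966), with the SNB19 and U87 effects of opposite sign. SOCS3 differed by 1.38 (edgeR adjusted p = 0.0391) and IL11 by 0.74 (0.0335), and CLCF1 by -1.25 (0.0108). The calls of IL6, LIF and IL6R held in all 17 alternatives run. Those of IL11 and SOCS3 were lost when 1 of several libraries was left out, with values of 0.64 to 0.96 and 0.95 to 2.15 over the left-out libraries, and that of CLCF1 without OE replicate 2 (edgeR adjusted p = 0.0503). Under the replicate block CLCF1 (0.0624), IL11 (0.105) and SOCS3 (0.0661) all missed the threshold. Without EV replicate 1 all 6 were called.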

How the results depend on the processing

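In SNB19 the 10 calls kept their direction under all 14 alternatives. The count of called genes, 8683, ran from 7662 to 9102 with 1 library left out, and was 2725 in 1 fit over all 4 groups and 1669 at the study's threshold. In U87 the count of 0 became 991 by DESeq2, 1863 with no filter, 4538 in 1 fit over all 4 groups, 7117 in that fit without EV replicate 1, 18 with the length trend removed, 2160 at the study's threshold, and 38 to 10616 with 1 library left out. The replicate block gave 468 calls in U87, 8601 in SNB19, 8247 between the control lines and 2215 for the difference between lines, where the main count was 4229. The numbers pair no samples by the labels, and in SNB19 same-numbered samples did not deviate together. In U87, where the sign of that correlation turns with the pairing chosen, a crossed block was run too and gave 1152 calls. The difference between lines ran from 2265 to 10435 calls, and the control lines from 8219 to 13539 around 9843, with 1 library left out. The causes of these shifts were not tested.

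Signs turned in U87 for CLCF1, CEBPD and TIMP1 with the length trend removed (0.15, 0.21 and 0.38), and for PIAS3, SH2B3 and TIMP1 under the block (0.16, 0.17 and 0.11; crossed 0.16, 0.17 and 0.10). Left-out EV replicates turned signs too. Without EV replicate 1 and then without EV replicate 2, the U87 values were -0.24 and 0.54 for IL31RA, 0.40 and -0.58 for CEBPD, 1.17 and -0.92 for TIMP1, 0.62 and -0.26 for CTF1, -0.60 and 0.40 for ADAM10, -0.46 and 0.49 for STAT3, -0.98 and 1.37 for PIAS3, and -0.75 and 1.13 for SH2B3. In the fit over all groups without EV replicate 1, IL31RA, CEBPD and TIMP1 were at -0.19, 0.45 and 1.22. The difference between lines ran from -0.27 to 1.28 for LIFR and from -0.045 to 0.92 for IL11RA with 1 library left out. Of the 10 genes, depth limits IL11RA most, at 4 to 9 counts in NC, and FGG had 0 to 3.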

Other observations

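IL6 overlaps the gene STEAP1B, which had 0 to 3 counts in NC, 3 to 7 in siMEOX2, 226 to 418 in EV and 148 to 186 in OE. In U87 this neighbour was thus lower in OE, where IL6 was higher. CLCF1 overlaps the gene RAD9A and OSMR overlaps RICTOR, each on the opposite strand. Over all libraries RAD9A had 207 to 373 counts and RICTOR 212 to 1343. The preparation does not mark strand, and the part of these neighbours in the counts of CLCF1 and OSMR was not tested.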
